A study of Mus musculus with 8 samples.

Results

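The 9 genes described here, Csf1r, Lyz1, Lyz2, Itgam, Adgre1, Cd68, Ctss, Sirpa and Emilin2, are used as markers of monocytes and of macrophages in general. They were chosen by name, and every probe set that the platform annotation assigns to exactly 1 of these symbols was taken, which gave 15 of the 45037 probe sets other than controls. Total RNA of spleen cells from 8-week-old male mice was measured on Affymetrix expression arrays, 1 array per sample. The question was which genes differ between 4 samples of C57Bl/6J, called wild type, and 4 samples of B6.SB-Yaa/J, called Yaa. B6.SB-Yaa/J males carry a Y chromosome with the Yaa mutation, a copy of a distal X segment that includes Tlr7, on a C57Bl/6 background; neither group was treated, and red cells were lysed in both. The copy is present in every cell of these males, and each sample was 1 spleen except Yaa 3, a pool of 2.

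Monocytes arise from bone marrow precursors under the growth factor CSF1, whose receptor is the product of Csf1r, and the spleen holds a reserve of them beside long-lived resident macrophages. In mice they are divided by the surface protein Ly6C into an inflammatory class with much of it and a patrolling class with little of it. Yaa is known for an increase of monocytes in autoimmune-prone strains, in which it speeds up lupus-like disease. None of the 9 genes marks a single cell type: Itgam and Lyz2 are also used by neutrophils, Adgre1 and Cd68 by resident macrophages, and Ctss by B cells and dendritic cells.

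A pair of Yaa samples stood apart from the other arrays before any member was considered. In Yaa 3 the 8 tested B cell markers had a mean log2 signal of 5.36, against 10.10 to 10.85 in the other 7 samples, and the 7 tested T cell markers had 5.18 against 8.11 to 9.12. Ms4a1, which encodes CD20, stood at 4.08 there, beside a floor of 4, so this sample goes against its label of whole spleen tissue. The erythroid list was lowest in Yaa 2, at 10.40 against 11.93 to 12.27 elsewhere. The strain labels held in all 8 samples, since the 10 tested distal X genes had a mean of 8.24 to 8.28 in wild type and 8.96 to 9.09 in Yaa. Because the arrays are of bulk tissue, fewer cells of a type and less RNA per cell cannot be told apart.

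Most members were highest in Yaa 3, and by the mean over the members Yaa 4 was the Yaa sample nearest to wild type. Signals were quantile normalized and are given either as such or as log2(signal + 16), in which differences of dim probe sets are understated. The mean log2 signal over the 9 genes, each taken by its brightest probe set, was 9.78 to 9.86 in the wild-type samples, 10.25 in Yaa 1, 10.17 in Yaa 2, 10.87 in Yaa 3 and 9.86 in Yaa 4. The mean of Yaa 4 therefore lay within the wild-type range, but its genes went both ways. Lyz1, Lyz2 and Itgam, 3 of the 9, stood above every wild-type sample there. Adgre1, Cd68 and Sirpa, also 3, stood below every one, and 3 lay within. For Sirpa this held for the brightest probe set only, as its other probe sets lay within or just above the wild-type range. Of the 9 genes, 8 had their highest value in Yaa 3. Relative to the wild-type mean, 7 genes stood 1.10 to 1.38 log2 units higher in Yaa 3, and the exceptions were Emilin2 at 0.62 and Ctss at -0.18.

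**Figure D1:**
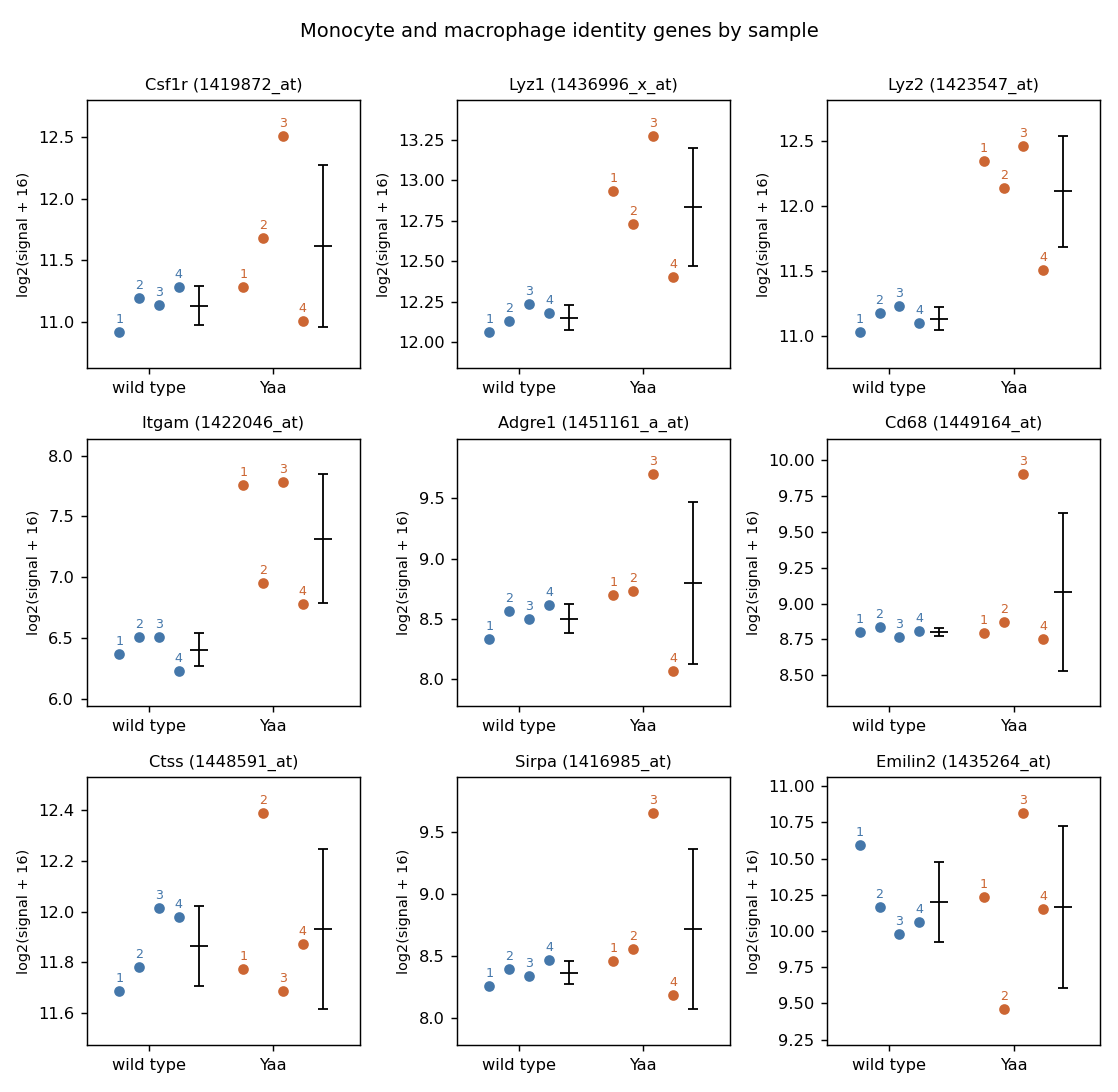
Each panel plots log2(signal + 16) of 1 member gene by its brightest probe set, with a point per sample numbered by replicate, wild type in blue and Yaa in orange, and the mean ± SD (n = 4) in black; axes differ between panels and do not start at 0. Lyz1, Lyz2 and Itgam lie above all wild-type samples in all 4 Yaa samples, whereas Adgre1, Cd68 and Sirpa stand out in Yaa 3.

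Of the 15 probe sets, 14 passed the filter on dim signals and entered the fit over 22518 probe sets, and the other, of Lyz1, is given by its values below. limma called 0 of the 14 at an adjusted p under 0.05, where it called 1 probe set higher (0.00444%) and 0 lower (0%) in all. At an unadjusted p under 0.05, limma listed 5 of the 14 as higher in Yaa, where 2.97% of all tested probe sets were, and 0 as lower, where 1.76% were. The 4 Yaa values lay above all 4 wild-type values for 4 probe sets, against 2.43% of all tested probe sets, and below them for 0, against 1.67%. Those higher were of Lyz2, Itgam and the bright pair of Lyz1, and how much of that pair's signal came from Lyz2 was not tested. Such probe sets are not independent measurements, which limits what these counts mean. The median difference over the 9 genes was 0.35 on the log2 scale, with 8 of 9 higher, beside a median of -0.011 and 47.6% higher over all tested probe sets. Without Yaa 3 that median was 0.15 with 7 of 9 higher. In that fit 5 member probe sets were higher at an unadjusted p under 0.05 and 4 had groups that did not overlap, beside 3.86% and 4.77% of all tested probe sets.

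**Figure D2:**
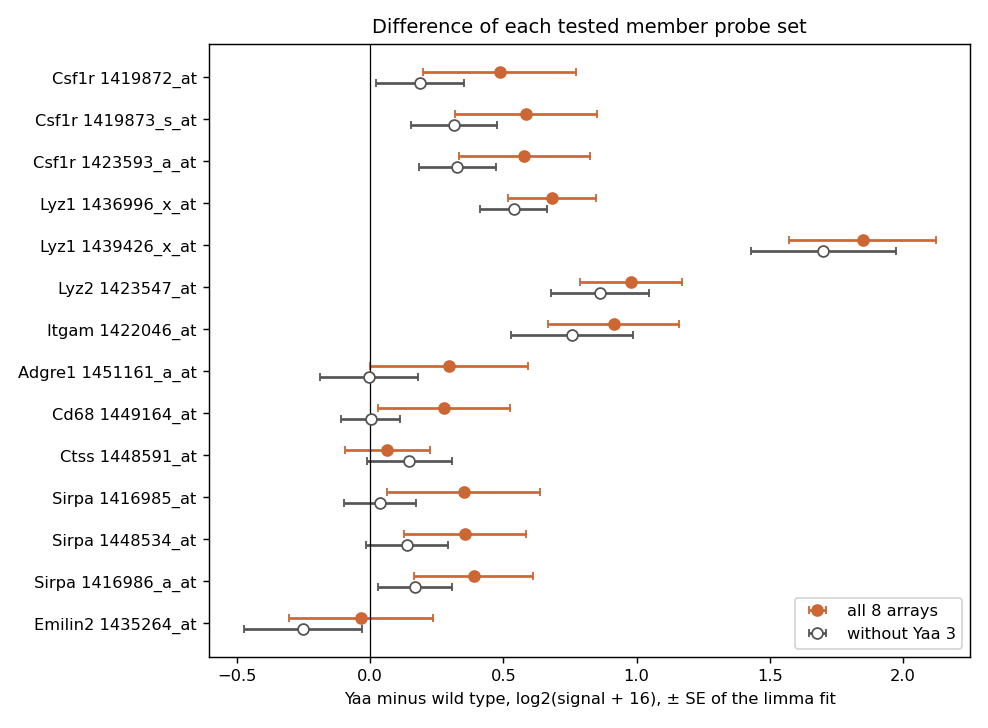
The difference Yaa minus wild type on the log2(signal + 16) scale is plotted for each of the 14 tested member probe sets, as the estimate ± SE of the limma fit, over all 8 arrays (filled) and without Yaa 3 (open). The lysozyme and Itgam probe sets stay at 0.54 or above without Yaa 3, whereas Adgre1 and Cd68 move to -0.0048 and 0.0023.

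Lyz2 and the bright pair of Lyz1 probe sets were higher in all 4 Yaa samples, while a dim Lyz1 probe set overlapped between the groups. Lyz2 encodes lysozyme M, an enzyme that cuts the peptidoglycan of bacterial walls and is made in large amounts by monocytes, macrophages and neutrophils. Its quantile-normalized signals were 2070, 2300, 2390 and 2180 in wild type 1 to 4 and 5190, 4490, 5630 and 2890 in Yaa 1 to 4. The lowest Yaa sample, Yaa 4, thus stayed above the highest wild-type sample, and the others were well above it. On the log2 scale the wild-type samples averaged 11.13 ± 0.088 (SD, n = 4) and the Yaa samples 12.11 ± 0.43 (SD, n = 4), a difference of 0.98 ± 0.19 (SE), or 1.97-fold (limma adjusted p = 0.412). Without Yaa 3 the difference was 0.86 ± 0.18 (SE; limma adjusted p = 0.336). Lyz2 was called without Yaa 4, at 1.18, and with array weights, at 0.94 (limma adjusted p = 0.0243 and 0.0273), and over all settings tried its adjusted p ran from 0.0243 to 1.

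Lyz1 encodes lysozyme P, the form known from the Paneth cells of the gut, and its 3 probe sets differed in what they measured. The brightest, 1436996_x_at, gave signals of 4250, 4460, 4820 and 4630 in wild type 1 to 4 and of 7820, 6780, 9900 and 5400 in Yaa 1 to 4. Probe set 1439426_x_at gave 1330, 1240, 1810 and 1340 in wild type and 7290, 4610, 6940 and 2970 in Yaa. In both, all 4 Yaa samples were above all wild-type samples and Yaa 4 was the lowest of the Yaa samples, as for Lyz2. The log2 differences were 0.68 ± 0.17 (SE) for the first and 1.85 ± 0.28 (SE) for the second (limma adjusted p = 0.611 and 0.139). That of 1439426_x_at, 3.60-fold, was the largest among the members, and it was called with array weights, without Yaa 4 and without Yaa 2 and Yaa 3 together (limma adjusted p = 0.00837, 0.0243 and 0.0272; 0.00837 to 0.684 over all settings). That of 1436996_x_at was called with array weights only, at 0.63 (limma adjusted p = 0.0423; 0.0423 to 1 over all settings).

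The third Lyz1 probe set, 1450822_at, was dim in every sample. Its signals were 25.3, 13.8, 2.69 and 11.7 in wild type 1 to 4 and 15.0, 15.4, 25.1 and 13.3 in Yaa 1 to 4, with overlapping groups. The suffix x_at of the bright pair marks probe sets of which some probes also match other transcripts, and the dim one carries no such mark. How much of the signal of the bright pair came from Lyz2 transcripts was not tested.

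**Figure D3:**
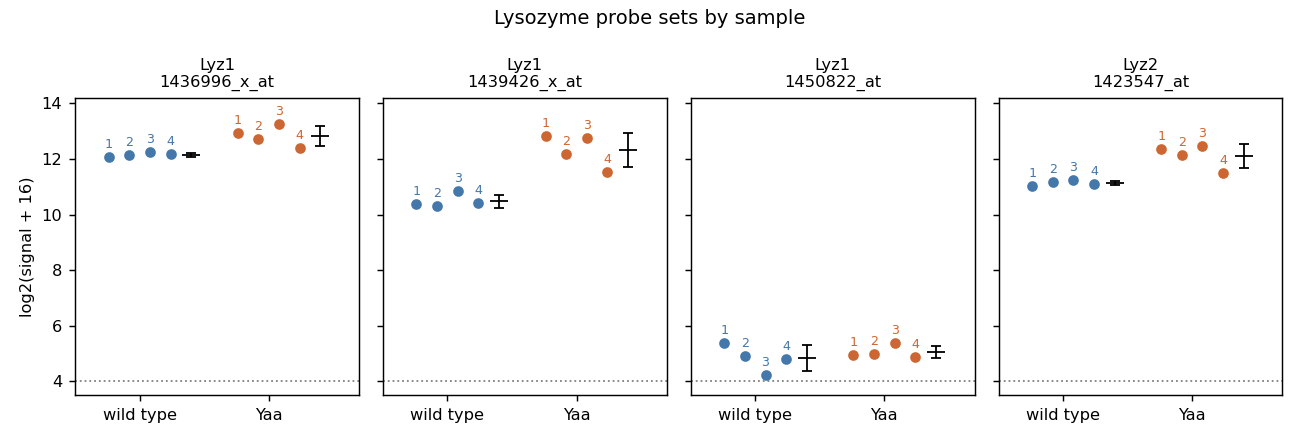
The 4 lysozyme probe sets are plotted on 1 common axis of log2(signal + 16), with points numbered by replicate, mean ± SD (n = 4) in black and the floor of 4 dotted. The 3 bright probe sets have every Yaa sample above every wild-type sample, and 1450822_at lies between 4.22 and 5.37 in both groups.

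Lyz1 and Lyz2 lie beside each other on chromosome 10 of GRCm38.p6, Lyz2 at 117277541 to 117282272 and Lyz1 at 117287795 to 117292868, both on the minus strand, with 5522 bases between them. Their promoters are shown because Lyz2 was higher in all 4 Yaa samples and Lyz1, its neighbour, was so by its bright probe sets, and those of Itgam, Cd68 and Ctss for a member with and for members without separated groups. The 250 bases before each RefSeq start (GRCm38.p6) are printed 5′ to 3′ along the gene. Capitals mark the letters GAGGAA, of the kind bound by the myeloid transcription factor PU.1, and TTGCNNAA, of the kind bound by C/EBP factors, each on either strand.
Lyz2, chr10:117282273-117282522, minus strand: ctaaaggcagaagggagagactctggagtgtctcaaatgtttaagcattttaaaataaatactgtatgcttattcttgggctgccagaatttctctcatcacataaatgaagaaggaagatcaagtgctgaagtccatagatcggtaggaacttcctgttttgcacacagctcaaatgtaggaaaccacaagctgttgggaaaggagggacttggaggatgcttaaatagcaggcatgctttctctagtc
Lyz1, chr10:117292869-117293118, minus strand: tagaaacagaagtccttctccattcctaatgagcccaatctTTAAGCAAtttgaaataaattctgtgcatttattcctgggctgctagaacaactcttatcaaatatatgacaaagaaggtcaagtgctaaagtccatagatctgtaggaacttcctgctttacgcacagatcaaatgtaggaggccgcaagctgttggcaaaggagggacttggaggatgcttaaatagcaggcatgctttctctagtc
Itgam, chr7:128062390-128062639, plus strand: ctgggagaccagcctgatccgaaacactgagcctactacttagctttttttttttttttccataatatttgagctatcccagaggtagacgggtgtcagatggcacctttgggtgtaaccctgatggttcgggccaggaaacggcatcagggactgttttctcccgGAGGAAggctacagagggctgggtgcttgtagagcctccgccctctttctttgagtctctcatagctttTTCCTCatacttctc
Cd68, chr11:69666171-69666420, minus strand: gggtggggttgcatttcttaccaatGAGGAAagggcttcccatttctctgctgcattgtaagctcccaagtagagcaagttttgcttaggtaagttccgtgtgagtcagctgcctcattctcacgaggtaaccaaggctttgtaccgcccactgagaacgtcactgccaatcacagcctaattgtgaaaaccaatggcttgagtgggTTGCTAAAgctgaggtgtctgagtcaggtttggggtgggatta
Ctss, chr3:95526536-95526785, plus strand: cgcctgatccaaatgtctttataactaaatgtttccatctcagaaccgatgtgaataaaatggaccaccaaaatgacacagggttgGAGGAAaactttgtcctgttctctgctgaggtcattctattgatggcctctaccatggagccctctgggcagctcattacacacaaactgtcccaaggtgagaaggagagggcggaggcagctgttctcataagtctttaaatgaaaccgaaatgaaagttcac

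The lysozyme stretches matched at 200 of 248 aligned bases (80.6%). Searched over 300 bases, from 250 before to 50 after the start, GAGGAA was in 3 of the 7 member windows available, those of Itgam, Cd68 and Ctss, each with 1 of its matches after the start and so outside the printed bases. It is in 28.3% of the 32851 windows of all genes. TTGCNNAA was in 2 of the 7, those of Lyz1 and Cd68, and in 10.8% of all. No matches of the motifs overlapped in these windows, and neither of the 2 Emilin2 windows held either motif. A match describes the letters only, and other sequences that these factors may bind were not searched for.

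Itgam encodes the alpha chain of the integrin Mac-1, also called CD11b, which binds complement-coated particles and the endothelium. Its signals were 66.6, 75.1, 75.1 and 58.9 in wild type 1 to 4 and 201, 108, 205 and 93.6 in Yaa 1 to 4. All 4 Yaa samples were above all wild-type samples, with Yaa 1 and Yaa 3 at a similar level and Yaa 2 and Yaa 4 closer to wild type. The log2 difference was 0.91 ± 0.25 (SE), or 1.88-fold (limma adjusted p = 0.728), and 0.76 ± 0.23 (SE) without Yaa 3 (limma adjusted p = 0.550). Itgam was not called under any setting tried (limma adjusted p 0.0665 to 1).

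With the values as deposited, without scaling between arrays, Yaa 4 no longer stood above all wild-type samples for Lyz2, Itgam and 1436996_x_at of Lyz1, and only 1439426_x_at stayed separate (1 of 14, against 0.426% of all tested probe sets higher). With the values as deposited the median difference of all tested probe sets was -0.20. Less that median, the log2 differences were 1.04 for Lyz2, 0.92 for Itgam and 0.81 for Lyz1, beside 0.99, 0.92 and 0.70 less the median of -0.011 after quantile normalization.

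Csf1r was measured by 3 probe sets, and in each the order was Yaa 3, then Yaa 2. It encodes the receptor tyrosine kinase for CSF1 and IL-34, on which monocytes and macrophages depend. Signals of the brightest, 1419872_at, were 1910, 2320, 2240 and 2480 in wild type 1 to 4 and 2470, 3260, 5830 and 2030 in Yaa 1 to 4. Yaa 1 and Yaa 4 lay within the wild-type range, so the groups overlapped. The log2 differences of the 3 probe sets were 0.49 ± 0.29, 0.59 ± 0.27 and 0.58 ± 0.25 (SE) (limma adjusted p = 0.997 each), and that of 1423593_a_at was the 1 among them listed at an unadjusted p under 0.05. Without Yaa 3 they were 0.19 ± 0.17, 0.32 ± 0.16 and 0.33 ± 0.14 (SE; limma adjusted p 0.715 to 0.745). For 1419872_at the 95% interval of the difference ran from -0.16 to 1.14 with all arrays and from -0.19 to 0.56 without Yaa 3.

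Adgre1, Cd68 and Sirpa shared a pattern in which Yaa 3 was high and the other Yaa samples were close to wild type. Adgre1 encodes F4/80, an adhesion-type receptor of macrophages, of which those of the splenic red pulp carry much. Its signals were 308, 363, 346 and 375 in wild type 1 to 4 and 399, 409, 816 and 253 in Yaa 1 to 4, so that Yaa 3 was the highest and Yaa 4 the lowest of all samples. The log2 difference was 0.30 ± 0.30 (SE; limma adjusted p = 0.997), with a 95% interval from -0.38 to 0.97, and was -0.0048 ± 0.18 (SE) without Yaa 3 (interval -0.42 to 0.41).

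Cd68 encodes macrosialin, a glycoprotein of late endosomes and lysosomes. Its signals were 431, 441, 420 and 432 in wild type 1 to 4 and 427, 453, 941 and 415 in Yaa 1 to 4. Apart from Yaa 3, the 7 samples lay between 415 and 453. The log2 difference was 0.28 ± 0.25 (SE; limma adjusted p = 0.997) and became 0.0023 ± 0.11 (SE; limma adjusted p = 0.995) without Yaa 3, with a 95% interval from -0.25 to 0.26.

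Sirpa encodes a receptor of myeloid cells that binds CD47 on other cells and holds back their engulfment. The brightest of its 3 probe sets, 1416985_at, gave signals of 289, 320, 308 and 338 in wild type 1 to 4 and 336, 359, 791 and 275 in Yaa 1 to 4. Only Yaa 2 and Yaa 3 exceeded all wild-type samples in it, and Yaa 4 was below all of them. The other probe sets differed in this. In 1448534_at only Yaa 3 lay outside the wild-type range, with Yaa 4 at a log2 signal of 7.64 against 7.12 to 7.68. In 1416986_a_at Yaa 1, Yaa 3 and Yaa 4 exceeded all wild-type samples, at 7.26, 8.00 and 7.17 against at most 7.15. The 3 probe sets had log2 differences of 0.35 ± 0.29, 0.36 ± 0.23 and 0.39 ± 0.22 (SE; limma adjusted p = 0.997 each). Without Yaa 3 these were 0.04, 0.14 and 0.17 (limma adjusted p 0.735 to 0.941).

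Ctss and Emilin2 did not follow the other members. Ctss encodes cathepsin S, the protease that trims the invariant chain of MHC class II in antigen-presenting cells. Its signals were 3280, 3500, 4110 and 4020 in wild type 1 to 4 and 3480, 5360, 3270 and 3730 in Yaa 1 to 4. It was highest in Yaa 2 and lowest in Yaa 3, where 3270 stood next to the 3280 of wild type 1. Yaa 3 lacked most B cell marker signal, and the part of this in the Ctss values was not tested. The log2 difference was 0.06 ± 0.16 (SE; limma adjusted p = 0.997), with a 95% interval from -0.30 to 0.43, and its sign turned without Yaa 2, at -0.09.

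Emilin2 encodes a glycoprotein of the extracellular matrix. Its signals were 1530, 1130, 993 and 1050 in wild type 1 to 4 and 1190, 687, 1790 and 1120 in Yaa 1 to 4. Yaa 3 was the highest and Yaa 2 the lowest of all samples, and wild type 1 was the highest of its group. The log2 difference was -0.03 ± 0.27 (SE; limma adjusted p = 1), with a 95% interval from -0.64 to 0.58, and was 0.20 without Yaa 2 and -0.25 without Yaa 3. The mean of the splenic macrophage list was likewise lowest in Yaa 2 and highest in Yaa 3, at 8.615 and 10.08. So was that of the erythroid list, at 10.40 and 12.27, with wild type 1 close at 12.26. The part of either list in the values of Emilin2 was not tested.

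**Figure D4:**
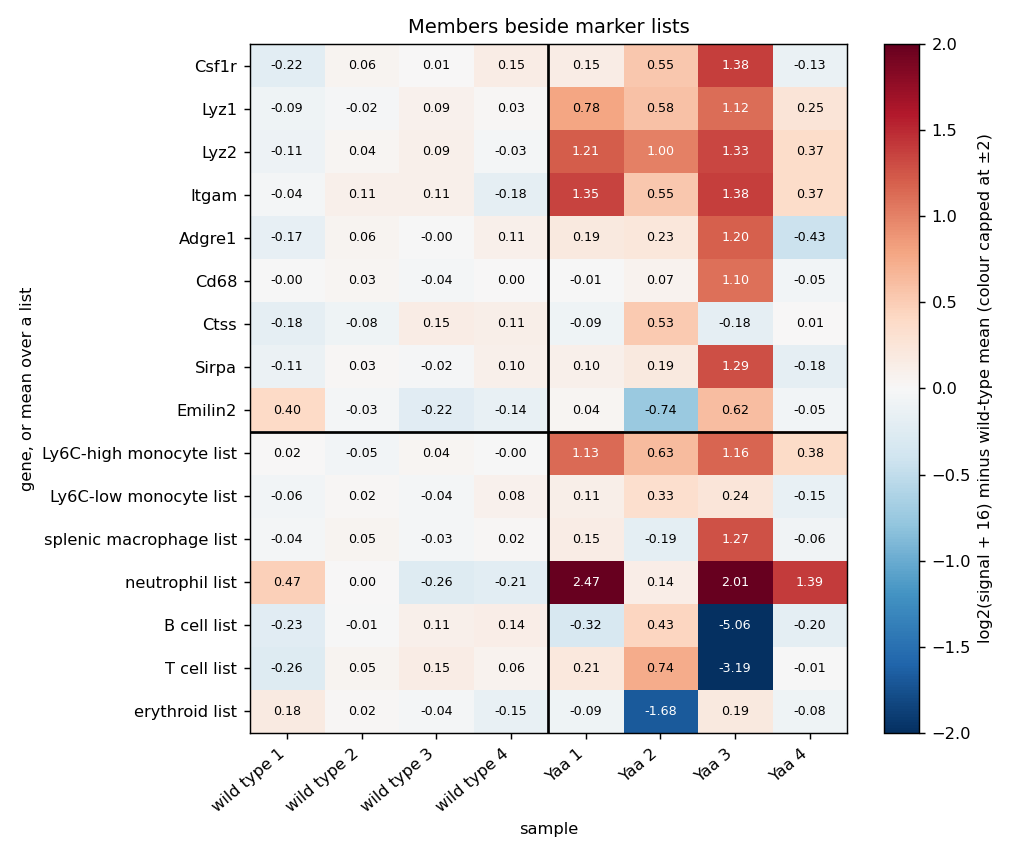
Rows are the 9 member genes and the means of 7 marker lists, columns are the 8 samples, and each cell gives log2(signal + 16) less the wild-type mean of its row, with the colour capped at ±2. In Yaa 3, 7 members are 1.10 to 1.38 higher, the splenic macrophage list is 1.27 higher, and the B cell and T cell lists are -5.06 and -3.19.

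Among genes whose products act with those of the members, Csf1 and Tyrobp had the largest differences. limma called 0 of the 8 tested partners, with 5 higher, 3 lower, a median log2 difference of 0.10, and 1 at an unadjusted p under 0.05. Without Yaa 3 that count was 0, and with the values as deposited the median was -0.061. The 1 was Csf1, the ligand of the Csf1r product, at 0.48 ± 0.21 (SE). Tyrobp, an adaptor of myeloid receptors also known as DAP12, differed by 0.55 ± 0.25 (SE), with log2 signals of 10.60 to 10.87 in wild type and of 11.14, 11.48, 11.95 and 10.61 in Yaa 1 to 4, an order like that of Csf1r. Itgb2, the beta chain that pairs with the Itgam product, differed by 0.19 ± 0.15 (SE) and Cst3, which encodes an inhibitor of cathepsins, by 0.28 ± 0.16 (SE). Cd47, the ligand of the Sirpa product, differed by -0.10 ± 0.21 (SE), and Ptpn6 and Ptpn11, the phosphatases it recruits, by -0.29 ± 0.31 and 0.01 ± 0.14 (SE). Cd74, the invariant chain cleaved by cathepsin S, differed by -0.34 ± 0.30 (SE) and was lowest in Yaa 3, at 11.88 against 13.08 to 13.38 elsewhere. Il34 was below the filter.

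Of 7 tested transcription factors of the lineage, 5 were higher and 2 lower, with a median of 0.16 and 0 called by limma (2 at an unadjusted p under 0.05). The median turned to -0.13 without Yaa 2, -0.086 without Yaa 2 and Yaa 3 together, -0.039 without wild type 1, -0.013 with the values as deposited and -0.00090 with array weights. The 2 were C/EBP genes, Cebpb at 0.71 ± 0.24 (SE) and Cebpa at 0.48 ± 0.16 (SE), of which Cebpa had every Yaa sample above every wild-type sample (5.22 to 5.67 in wild type, 5.77 to 6.15 in Yaa). Spi1, which encodes PU.1, differed by 0.26 ± 0.26 (SE) and Irf8 by 0.02 ± 0.23 (SE). Klf4 differed by 0.16 ± 0.35 (SE), Zeb2 by -0.22 ± 0.16 (SE) and Runx1 by -0.33 ± 0.15 (SE).

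By its mean, the list of Ly6C-high monocytes stood higher in all 4 Yaa samples. Averaged over its tested genes, it stood at 8.35 to 8.45 on the log2 scale in the wild-type samples and at 9.54, 9.04, 9.56 and 8.79 in Yaa 1 to 4. Of its 7 tested genes 5 were higher, with a median of 0.90. limma called 0, with 4 higher at an unadjusted p under 0.05, beside 2.97% of all tested probe sets. Ccr2, the receptor through which these cells leave the marrow, differed by 0.90 ± 0.28 (SE), F13a1, a subunit of coagulation factor XIII, by 1.05 ± 0.32 (SE), and Hp, which encodes haptoglobin, by 1.46 ± 0.32 (SE). In each of these 3 the groups did not overlap, as in 2.43% of all tested probe sets higher in Yaa. Yaa 4 was the lowest Yaa sample in Ccr2 and F13a1. Hp was lowest of the Yaa samples in Yaa 2, at 7.47, as was the neutrophil list described below. Fn1 differed by 0.61 ± 0.41 (SE), and Ms4a4c and Plac8 by -0.07 ± 0.25 and -0.02 ± 0.30 (SE). Ms4a4c and Plac8 were lowest of all samples in Yaa 3, at 8.81 and 10.70. Chil3, also made by neutrophils, differed by 1.85 ± 0.53 (SE) but in Yaa 2, at 9.05, did not exceed wild type 1, at 9.06. In Yaa 4, 4 of the 7 genes stood above every wild-type sample, 1 below every one and 2 within. Chil3 and Hp stood furthest above there, at 9.90 and 7.78. Ccr2 and F13a1, at 7.63 and 7.55, were close to the highest wild-type samples, at 7.51 and 7.43. Ly6c1 and Ly6c2, the genes of Ly6C itself, had no probe set assigned to exactly 1 symbol and so were left out. Probe sets assigned to several symbols were not examined for them. Without Yaa 3 the list's median was 0.64 with 7 of 7 higher. Without Yaa 2 and Yaa 3 together it was 0.43, with 2 called higher, beside 0.329% of all tested probe sets.

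In the list of Ly6C-low monocytes 8 of 12 tested genes were higher, with a median of 0.17, and limma called 0 (1 at an unadjusted p under 0.05). The list's mean was 8.03 to 8.17 in wild type and 8.20, 8.42, 8.33 and 7.94 in Yaa 1 to 4, so Yaa 4 was below all wild-type samples. The 1 was Fcgr4, an activating receptor for IgG, at 0.84 ± 0.20 (SE), with every Yaa sample above every wild-type sample. Ace differed by 0.40 ± 0.21 (SE), Spn by 0.37 ± 0.19 (SE) and Pou2f2 by -0.46 ± 0.21 (SE). The median was -0.022 with the values as deposited, -0.034 without Yaa 2 and Yaa 3 together, and 0.33 without Yaa 4. The difference between the 2 monocyte lists was not tested.

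Markers of neutrophils, which share Lyz2 and Itgam with monocytes, had a summed signal above the wild-type range in 3 of the 4 Yaa samples. All 12 tested of 14 neutrophil genes had higher means, with 8 at an unadjusted p under 0.05 and 0 called by limma (10 with array weights and 8 without Yaa 2, where those fits called 102 and 28 of all tested probe sets higher), and their summed signal was 8700 to 14400 in wild type and 56200, 13300, 37500 and 29000 in Yaa 1 to 4. In Yaa 2 the sum was thus inside the wild-type range. S100a9, Mmp8, Mmp9, Csf3r and Cxcr2, 5 of the 12, stood there above every wild-type sample, and Camp, Ltf, Ngp and Elane, 4 of the 12, below every one. Lyz2, at 4490, and Itgam, at 108, were above every wild-type sample in Yaa 2. In Yaa 4 the neutrophil sum was above every wild-type sample. Csf1r, Adgre1, Cd68 and 1416985_at of Sirpa were within or below the wild-type range there, while 1416986_a_at of Sirpa was just above it. The neutrophil genes with the smallest p were Mmp9 (log2 difference 1.27), S100a9 (1.47), S100a8 (1.30) and Mmp8 (1.94). None of the 12 was at the floor of 4 in a sample; the lowest value was that of Cxcr2, 4.39. Their part in the Lyz2 and Itgam differences was not tested.

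Markers of resident splenic macrophages moved with Csf1r, Adgre1, Cd68 and Sirpa in Yaa 3. The summed signal of the 12 tested of 14 genes was 6850 to 7340 in wild type and 7630, 6080, 17800 and 6550 in Yaa 1 to 4. With all arrays 11 of 12 were higher, with a median of 0.27, and without Yaa 3 the count was 6 of 12 with a median of -0.059; limma called 0 in both. The complement gene C1qa had the smallest p, at 0.85 ± 0.29 (SE), followed by C1qb (0.45), Timd4 (0.43) and Nr1h3 (0.29). None of the tested markers was at the floor, and Marco and Siglec1, which mark the marginal zone, were below the filter. Dendritic cell markers, with 6 of 6 tested genes higher and a median of 0.15, had a summed signal of 641 to 931 in wild type and 804, 1310, 1120 and 685 in Yaa 1 to 4. Without Yaa 3 the count was 3 of 6 with a median of 0.10, and the median was -0.060 with the values as deposited, -0.15 with array weights and -0.14 without Yaa 2 and Yaa 3. NK cell markers had 4 of 4 higher with a median of 0.51, and their sum was 419 to 630 in wild type and 613, 783, 1600 and 520 in Yaa. Without Yaa 3 the count was 3 of 4 with a median of 0.17, and without Yaa 2 and Yaa 3 it was 1 of 4 with a median of -0.060. The summed signal of the B cell list was 12700 to 17800 in wild type and 12300, 22100, 307 and 13400 in Yaa 1 to 4, and that of the T cell list was 2070 to 3100 and 3000, 4670, 182 and 2670. The part of these cell types in the member values was not tested.

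The genes most like Csf1r and Lyz2 were found by the root mean square distance between log2 profiles over the 8 arrays, each profile less its wild-type mean. Closest to Csf1r were Lhfp, at a distance of 0.093 log2 units, Adgre4, a receptor gene related to Adgre1 and counted here among Ly6C-low monocyte genes, at 0.11, and Tmem26, at 0.11. All 3 were highest in Yaa 3, at 1.35, 1.27 and 1.44 above their wild-type mean, and below that mean in Yaa 4. Closest to Lyz2 were S100a6, which encodes a calcium-binding protein, at 0.14, Clec5a, a receptor gene of myeloid cells, at 0.15, and Slpi, which encodes an inhibitor of neutrophil elastase, at 0.18. Each of these was above its wild-type mean in all 4 Yaa samples and lowest of them in Yaa 4, at 0.28, 0.50 and 0.15. These likenesses describe 8 arrays, on which Yaa 3 weighs heavily.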

How the data were processed

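Per the submitters' processing notes, the authors deposited MAS5 signals, which are linear intensity values, 1 per probe set, with version, scaling target and filters not given in the sources used here. Trimmed mean signals ran from 106.9 to 193.1, so arrays were quantile normalized and taken as log2(signal + 16). The fit left out 64 controls and every probe set not above the median array-wide mean, leaving 22518. Groups were compared with limma 3.58.1 (R 4.3.3; lmFit, eBayes with trend), adjusting by Benjamini-Hochberg over all of these, with a threshold of 0.05. The number of arrays limits the precision.

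Symbols came from the platform annotation, updated through Entrez IDs to GRCm38.p6; the probe set with the highest mean log2 signal stood for a gene. Named by rule are all member probe sets, all tested partners and lineage factors, at most 4 genes per other list by smallest p, and the 3 nearest profiles to Csf1r and to Lyz2. Ms4a1, Cxcr2, Fn1, Ms4a4c, Plac8 and the neutrophil genes high or low in Yaa 2 were chosen after their values were seen. Members, lists and settings were chosen with earlier results of these data known. Leaving out samples kept the normalization and the tested probe sets. The fit was tested on simulated data with independent noise of the same size on every array. That test does not cover samples that stand apart, as Yaa 2 and Yaa 3 did. Figures used matplotlib 3.10.9 (Python 3.11.15). Promoters of 6 of the 9 genes came from RefSeq's GRCm38.p6 table.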

Additional observations from a re-analysis of the deposited data

Results flagged for a closer look

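In 30 groups of 4 values (15 member probe sets in 2 groups), 2 held a sample far from the others, and chance gives about 1 in 20. Cd68 stood at 9.90 in Yaa 3 with the nearest Yaa sample at 8.87, a gap of 0.895 of the group's range. Probe set 1448534_at of Sirpa stood at 8.47 in Yaa 3 with the nearest at 7.64, a gap of 0.937 of the range. Yaa 3 was the pool of 2 spleens and the sample with the lowest B cell and T cell marker signal; the part of either in these values was not tested.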

How the results depend on the processing

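Across 20 settings the number of member probe sets called higher by limma was 0 except with array weights (3, beside 0.453% of all tested probe sets), without Yaa 2 and Yaa 3 together (1, beside 0.329%) and in the fits leaving out 1 sample, which gave 0 to 2 (2 without Yaa 4, beside 0.04%). All those called were lysozyme probe sets. Probe sets whose groups did not overlap numbered 1 with the values as deposited, and the median difference of the members was -0.0067 without Yaa 2 and Yaa 3, 0.065 with array weights and 0.136 with the values as deposited. Signs turned for 1 probe set each of 5 genes: Adgre1 and Cd68 were -0.12 and -0.031, and 1416985_at of Sirpa -0.041, without Yaa 2 and Yaa 3, and Adgre1 -0.0048 without Yaa 3 (to 0.539 without Yaa 4). Ctss was -0.048 with the values as deposited and with array weights, -0.089 without Yaa 2 (to 0.147 without Yaa 3), and -0.044 without Yaa 2 and Yaa 3. Emilin2 was 0.058 with array weights, 0.098 without wild type 1, 0.20 without Yaa 2 and -0.252 without Yaa 3. Lyz1, Lyz2, Itgam and Csf1r kept their sign under every setting in which they were tested. For Csf1r the difference nearly vanished in some of them: 1419872_at was 0.0098 without Yaa 2 and Yaa 3 and 0.116 with array weights. The cause of these changes was not tested. Array weights were 0.22 for Yaa 2 and for Yaa 3. With the replicate number as a block, 0 members were called and 5 had an unadjusted p under 0.05, as without it. Same-numbered samples did not deviate together (correlations 0.016 to -0.367), and no wild-type sample matched best its own number. With 4 arrays a group, of which Yaa 2 and Yaa 3 stood far from the rest, this cannot show whether the numbers pair the samples. The member counts over all samples rest on 4 arrays a group.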
